A study of Mus musculus with 10 samples.

Results

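The genes described here were low in wild-type (WT) mouse embryonic stem cells (ESCs), and higher without DGCR8 and without DDX6. They were followed through all 10 libraries of the series. They are Smyd1, Vax2, Sh3bgrl and Pdzrn4, 4 of the 51467 genes counted and of the 11683 tested. The genes were chosen by their measured values, as low in WT and higher in both knockouts, so their differences from WT are given as a description and carry no test. Libraries came from WT cells (3), cells without DGCR8 (DGCR8 KO, 3) and cells without DDX6 (DDX6 KO, 2 from each of 2 clones), all grown with serum, LIF and 2i, a pair of kinase inhibitors. The WT cells are of the V6.5 line. The DGCR8 KO line was made earlier, and each DDX6 KO clone carries a CRISPR lesion at the same exon, an insertion in one and a deletion in the other, so that each genotype rests on 1 line or 2 clones.

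DGCR8 is the partner of the Drosha nuclease, and without it most miRNAs are not made. DDX6 is an RNA helicase that the miRNA effector complex recruits to mRNAs, where it is tied to translational repression and decapping. The 4 genes belong to no common pathway. Smyd1 encodes a lysine methyltransferase of heart and skeletal muscle that is needed for assembly of the contractile fibres. Vax2 encodes a homeodomain transcription factor of the ventral eye. Sh3bgrl encodes a small protein with a thioredoxin-like fold. Pdzrn4 encodes a protein with a RING finger and PDZ domains, related to the LNX ubiquitin ligases.

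In mm10, Smyd1 (ENSMUSG00000055027) spans chr6:71213940-71322233 on the minus strand, and its long span comes from annotated transcripts that start far upstream of the others. Vax2 (ENSMUSG00000034777) lies on the same chromosome at chr6:83711264-83738313 on the plus strand. Sh3bgrl (ENSMUSG00000031246) is at chrX:109095365-109162471 and Pdzrn4 (ENSMUSG00000036218) at chr15:92396915-92771819, both on the plus strand.

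The promoters are shown because the 4 genes were selected for being higher in both knockouts, and the stretches differ in their content of CpG dinucleotides. Each is the 250 bases before the transcription start in RefSeq on GRCm38.p6, written 5′ to 3′ along the gene's strand, with every CpG in capitals. They lie at chr6:71262282-71262531 on the minus strand (Smyd1), chrX:109095157-109095406 on the plus strand (Sh3bgrl) and chr15:92396560-92396809 on the plus strand (the first of the annotated Pdzrn4 starts). Vax2 was not matched.
Smyd1: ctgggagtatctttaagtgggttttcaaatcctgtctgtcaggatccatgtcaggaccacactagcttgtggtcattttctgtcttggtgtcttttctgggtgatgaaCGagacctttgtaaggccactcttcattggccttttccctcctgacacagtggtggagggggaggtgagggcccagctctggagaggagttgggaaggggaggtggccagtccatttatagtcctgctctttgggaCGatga
Sh3bgrl: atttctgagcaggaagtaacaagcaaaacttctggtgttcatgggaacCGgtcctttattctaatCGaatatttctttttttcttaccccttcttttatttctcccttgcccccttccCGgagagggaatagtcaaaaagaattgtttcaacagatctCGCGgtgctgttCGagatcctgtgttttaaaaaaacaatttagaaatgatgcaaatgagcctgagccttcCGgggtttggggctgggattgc
Pdzrn4: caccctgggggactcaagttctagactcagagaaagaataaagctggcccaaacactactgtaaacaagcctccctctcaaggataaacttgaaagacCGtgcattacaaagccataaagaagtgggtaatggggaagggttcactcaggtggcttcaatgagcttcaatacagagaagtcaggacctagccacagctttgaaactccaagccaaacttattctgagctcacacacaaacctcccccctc

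The Smyd1 stretch held 2 CpGs, 51.6% G and C, and an observed-to-expected CpG ratio of 0.126. The Pdzrn4 stretch held 1 CpG, with 47.2% G and C and a ratio of 0.0732. The Sh3bgrl stretch was the richest of the 3 in CpG, with 7, a ratio of 0.623 and 42.4% G and C. Over all 32851 promoters of the table the median was 6 CpGs, a ratio of 0.373 and 52.4% G and C, so Smyd1 and Pdzrn4 lay low in that distribution, at percentiles 18.8 and 7.87 for the number of CpGs, and Sh3bgrl near its middle, at percentile 53.7. The second annotated Pdzrn4 start, further into the gene, had 2 CpGs and a ratio of 0.237. The TATA box (TATAAA), the CCAAT box, the GC box (GGGCGG) and the E-box (CACGTG) were searched on both strands. The Smyd1 stretch held TATAAA, on the opposite strand and beginning 28 bases before the start, and CCAAT, on the opposite strand and beginning 117 bases before it. These motifs occurred in 12.4% and 33.8% of all promoters. GGGCGG, in 32.7% of promoters, and CACGTG, in 6.02%, were in none of the stretches, and neither Sh3bgrl nor either Pdzrn4 start held any of the motifs.

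Since both knockouts touch miRNAs, the 3′ UTRs were searched for 7-base matches to the seeds, bases 2 to 8 of the miRNA, of the families most relevant to ESCs. Seeds are in capitals. miR-294 stands for the ESCC family of the miR-290 and miR-302 clusters, miR-17 for a family whose seed is shifted by a base, and let-7 for miRNAs of differentiated cells.
mmu-miR-294-3p: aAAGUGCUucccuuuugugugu
mmu-miR-302b-3p: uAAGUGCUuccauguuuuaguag
mmu-miR-17-5p: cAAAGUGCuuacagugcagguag
mmu-let-7a-5p: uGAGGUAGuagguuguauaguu

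A match was the complement of bases 2 to 8 (AGCACTT for ESCC, GCACTTT for miR-17, CTACCTC for let-7) or of bases 2 to 7 followed by A (GCACTTA for ESCC, CACTTTA for miR-17, TACCTCA for let-7), and an ESCC match can overlap one for miR-17. Smyd1 and Sh3bgrl held matches, with the matched bases in capitals below.
Smyd1, ESCC: ttttcctacaaAGCACTTtatttgcagag
Smyd1, miR-17: atgcccattttCACTTTAcctgcttgcaa
Sh3bgrl, miR-17: agattgcagttCACTTTAaattggccctt
Sh3bgrl, miR-17: gcttttagtttCACTTTAggtagactgtg

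The Smyd1 3′ UTR, 1809 bases long in its main transcript, had 1 ESCC match, at base 1635, and 3 miR-17 matches. Of the miR-17 matches, those at bases 1636 and 1637 overlap the ESCC match and each other, and so mark the same place. The shorter annotated Smyd1 ends, of 138 to 624 bases, held none. Sh3bgrl, with a 3′ UTR of 2309 bases, had 2 miR-17 matches and no ESCC match. Vax2, with 330 bases, and both Pdzrn4 ends, with 23 and 806 bases, held no match, and none of the 4 genes held one for let-7. Among 10976 tested genes with a 3′ UTR, 19.9% held an ESCC match, 21.1% a miR-17 match and 15.9% a let-7 match, and the median length was 1050 bases. A match of these letters is a description and says nothing of binding.

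Reads were counted at the 3′ ends of transcripts, with 2131156 to 4745083 counts per library, and a floor of 3 counts was worth 0.669 to 1.44 CPM, the count adjusted for each library's depth. Dgcr8 fell to 20.6% of its WT mean in DGCR8 KO, and Ddx6 to 16.2% in DDX6 KO (26.4% in clone 1 and 6.02% in clone 2). The 10 pluripotency markers, Pou5f1, Sox2 and Nanog among them, had a summed level of 4320 to 4746 CPM in WT, 3939 to 4383 in DGCR8 KO and 4239 to 4670 in DDX6 KO. The labels do not say that libraries of a group were separate cultures, so p-values measure the spread between these libraries, and in bulk RNA more expressing cells cannot be told apart from more RNA per cell.

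Smyd1 was measured at 5.28, 9.20 and 2.68 CPM in the WT libraries, from 11, 27 and 12 counts. In DGCR8 KO it was at 53.6, 49.9 and 53.4 CPM, the narrowest spread of any group for this gene. In DDX6 KO it was at 78.7 and 36.9 CPM in clone 1 and at 78.1 and 58.8 CPM in clone 2. The lowest knockout library, the second of clone 1, was still 4.01 times the highest WT library, so neither knockout overlapped WT. Mean levels were 5.72 ± 3.28 CPM in WT (SD, n = 3), 52.3 ± 2.07 in DGCR8 KO (n = 3) and 63.1 ± 19.8 in DDX6 KO (n = 4). On the log2 scale the fitted differences from WT were 3.46 (SE 0.44) in DGCR8 KO and 3.67 (SE 0.43) in DDX6 KO, or 11.04-fold and 12.7-fold. Without WT replicate 3, the lowest of its group, the log2 differences were 2.80 and 3.01.

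Vax2 was at 6.72, 3.07 and 4.68 CPM in WT, from 14, 9 and 21 counts. It was at 38.3, 49.5 and 53.8 CPM in DGCR8 KO. In DDX6 KO it was at 62.6 and 91.8 CPM in clone 1 and at 55.6 and 64.9 CPM in clone 2. Every DDX6 KO library thus lay above every DGCR8 KO library, and all 7 knockout libraries lay above WT. The share of all tested genes with such a gap between the knockouts was not counted, for this gene or for Sh3bgrl and Pdzrn4 below. The second clone 1 library, which had the lowest Smyd1 level of the knockouts, had the highest Vax2 level. The second clone 2 library, next lowest in Smyd1 within DDX6 KO at 58.8 CPM, was next highest in Vax2. Within DDX6 KO the pair thus tended to move in opposite directions, over 4 libraries and without a test. The means were 4.82 ± 1.83 CPM in WT (n = 3), 47.2 ± 8.01 in DGCR8 KO (n = 3) and 68.7 ± 15.9 in DDX6 KO (n = 4), with log2 differences from WT of 3.33 (SE 0.36) and 3.87 (SE 0.35).

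Sh3bgrl was read in WT from only 2, 7 and 5 counts, at 0.960, 2.39 and 1.11 CPM. It was at 7.04, 12.2 and 11.8 CPM in DGCR8 KO. It was at 32.2 and 32.0 CPM in clone 1 and at 26.4 and 22.1 CPM in clone 2. The 3 groups were arranged in steps with no overlap, and the lowest DGCR8 KO library was 2.95 times the highest WT library. The means were 1.49 ± 0.782, 10.4 ± 2.88 and 28.2 ± 4.87 CPM (n = 3, 3 and 4), and the log2 differences from WT 2.71 (SE 0.52) and 4.17 (SE 0.49).

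Pdzrn4 had the opposite order of the knockouts. It was read in WT from 5, 1 and 3 counts, at 2.40, 0.341 and 0.669 CPM. In DGCR8 KO it was at 50.5, 60.1 and 43.6 CPM, and in DDX6 KO at 5.49 and 6.61 CPM in clone 1 and at 8.09 and 3.64 CPM in clone 2. The lowest DDX6 KO library was 1.52 times the highest WT library, the smallest gap among the 4 genes, whereas the lowest DGCR8 KO library was 18.2 times it, the widest. The means were 1.137 ± 1.11, 51.4 ± 8.28 and 5.96 ± 1.88 CPM (n = 3, 3 and 4), and the log2 differences from WT were 5.80 (SE 0.58) and 2.64 (SE 0.62). The WT level lay within the range of the floor, and these folds rest on 9 WT counts in all. In limma-trend, which adds a prior count, they were 5.01 and 2.00.

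**Figure D1:**
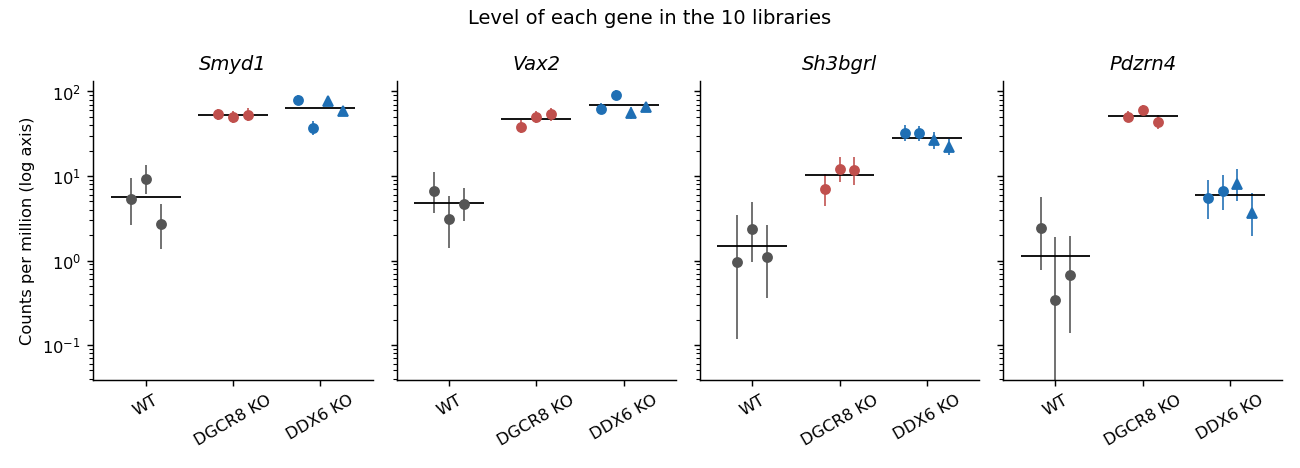
CPM of each gene (log axis) in the WT, DGCR8 KO and DDX6 KO libraries. Points are libraries (triangles for DDX6 KO clone 2) with exact 95% binomial intervals, which cover counting error only, and lines are group means. All knockout points lie above the WT points, and Pdzrn4 alone has its DDX6 KO points, 3.64 to 8.09 CPM, far below its DGCR8 KO points, 43.6 to 60.1 CPM.

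The share of tested genes called higher than WT, at an adjusted p under 0.05 and a log2 difference beyond 1, was 8.93% in DGCR8 KO and 7.55% in DDX6 KO. All 4 genes were among them in both, which their choice fixed. Over all tested genes, 8.54% had every library of both knockouts above every WT library. Of the 3237 tested genes with a WT mean under 10 CPM, the share was 9.33%, or 302 genes. Ordered by their mean CPM in whichever knockout was lower, Smyd1 and Vax2 stood first and second of these 302, at 52.3 and 47.2 CPM against a median of 8.41 CPM. Sh3bgrl stood at rank 117, at 10.4 CPM, and Pdzrn4 at rank 201, at 5.96 CPM. The genes were chosen by these same values, so their places among the 302 are a description only. These CPM were not divided by transcript length, as reads came from transcript ends.

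**Figure D2:**
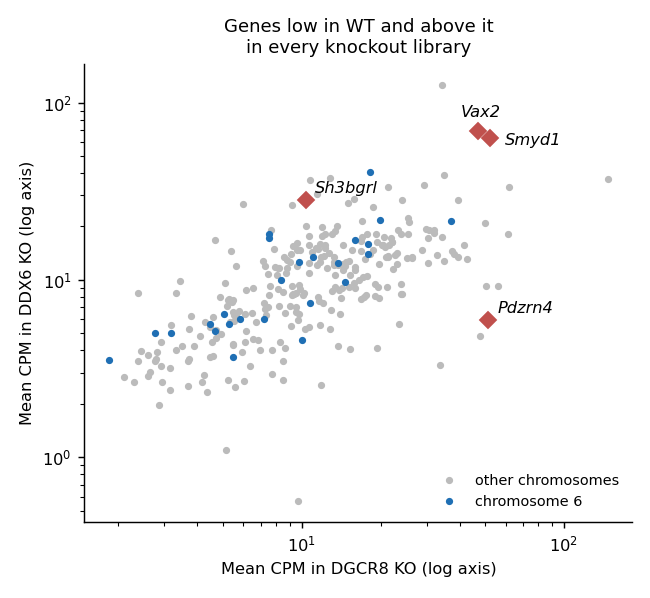
Mean CPM in DGCR8 KO against mean CPM in DDX6 KO (log axes) of the 302 genes with a WT mean under 10 CPM and every knockout library above every WT library, with those of chromosome 6 in blue and the 4 genes as diamonds. Smyd1 and Vax2 lie together at the upper right, Sh3bgrl towards DDX6 KO and Pdzrn4 towards DGCR8 KO.

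The knockouts were then compared with each other, a contrast that did not enter the choice of the genes. By limma-voom, with adjustment over all genes tested, 17.1% of genes were called in either direction, and 2 of the 4 were. Pdzrn4 was higher in DGCR8 KO by 3.16 on the log2 scale (95% interval 2.59 to 3.73, adjusted p = 5.66e-08), an 8.95-fold difference shown by 3 of 3 DGCR8 KO libraries against all 4 of DDX6 KO. Sh3bgrl was lower in DGCR8 KO, at -1.47 (95% interval -1.99 to -0.945, adjusted p = 0.000117, limma).

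For Vax2 the log2 difference, DGCR8 KO minus DDX6 KO, was -0.54 (95% interval -0.91 to -0.18, adjusted p = 0.0166, limma), which is short of the size needed for a call. Without DGCR8 KO replicate 1 its adjusted p was 0.117. For Smyd1 the difference was -0.20, with an interval of -0.67 to 0.26 (adjusted p = 0.472, limma).

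Both Smyd1 and Vax2 are on chromosome 6, whose tested genes as a whole stood higher in DDX6 KO. No DNA was analysed here, so the number of chromosome copies in the clones was not tested. Over its 561 tested genes, the median distance of log2 CPM from the WT mean was 0.53 to 0.65 in the DDX6 KO libraries, 0.03 to 0.14 in DGCR8 KO and -0.01 to 0.01 in WT, and 23.5% of them were called higher in DDX6 KO. The same medians in DDX6 KO were -0.08 to -0.03 for chromosome 15, which holds Pdzrn4, and 0.11 to 0.16 for chromosome X, which holds Sh3bgrl. After each library was centred on its chromosome medians, Smyd1 was 3.38 above WT in DGCR8 KO and 3.07 in DDX6 KO on the log2 scale, and Vax2 was 3.25 and 3.27 above it. The difference between the knockouts was then -0.02 for Vax2 (adjusted p = 0.937, limma) and 0.32 for Smyd1 (adjusted p = 0.262, limma), the latter with its sign turned. Sh3bgrl and Pdzrn4 kept their calls, at -1.38 and 3.11.

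The DDX6 KO clones, which differ in remaining Ddx6 mRNA (log2 difference -2.18, clone 2 minus clone 1, adjusted p = 3.1e-05, limma), were compared in the same way, and 0.0428% of genes, 5 in all, were called. None of the 4 genes was, by limma, edgeR or DESeq2, and 0 of the 4 had an unadjusted p under 0.05. Their log2 differences, clone 2 minus clone 1, were 0.33 for Smyd1 (95% interval -0.26 to 0.91), -0.33 for Vax2 (-0.77 to 0.10), -0.42 for Sh3bgrl (-0.91 to 0.07) and -0.21 for Pdzrn4 (-1.26 to 0.83), each with an adjusted p of 0.9997 in limma.

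**Figure D3:**
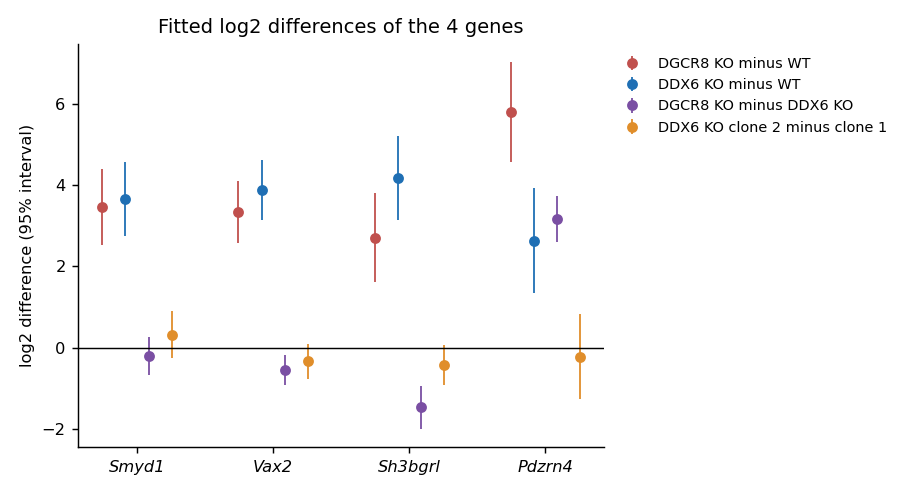
Fitted log2 differences (vertical axis) with 95% intervals from limma-voom for the 4 genes, each knockout against WT, DGCR8 KO against DDX6 KO, and DDX6 KO clone 2 against clone 1. Only Sh3bgrl, at -1.47, and Pdzrn4, at 3.16, were called in the contrast between knockouts, and all clone intervals cover 0.

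Genes around each of the 4 were examined next, taking the 5 nearest tested genes on each side. Of these 40 genes, 11 were called higher and 0 lower than WT in DGCR8 KO, and likewise 11 and 0 in DDX6 KO, where 8.93% and 7.55% of all tested genes were higher and 5.81% and 3.66% lower. With spike-in scaling the count in DGCR8 KO was 6. Of the 40, 9 did not reach 3 CPM in all WT libraries, and calls of these 9 can be partly set by the filter. Of the other 31, 6 were higher in DGCR8 KO and 7 in DDX6 KO. The filter was passed by 1 of the 40 (Lrrk2) only with DGCR8 KO libraries and by 2 only with DDX6 KO libraries. The median log2 difference of the 40 was 0.21 in DGCR8 KO and 0.64 in DDX6 KO, beside 0.00425 and 0.0237 over all tested genes. None was lower by edgeR or DESeq2 either, 1 (Hdx) was lower in DGCR8 KO with the replicate number as a block, and 3 were lower in DGCR8 KO and 0 in DDX6 KO at an unadjusted p under 0.05 (limma). In DDX6 KO 8 of the 11 lay on chromosome 6, and 8 of the 40 were called after chromosome centring.

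Around Vax2, the antisense transcript Vax2os, which overlaps the start of Vax2 on the other strand, was higher by 1.78 (SE 0.47) in DGCR8 KO and 1.88 (SE 0.45) in DDX6 KO. Its WT levels, 1.11 to 2.40 CPM, were under the 3 CPM of the filter. It was tested only through knockout libraries, so its being higher there was partly set by the filter and is a description only. Vax2os was read from 5, 5 and 5 counts in WT, 16, 25 and 10 in DGCR8 KO, and 14, 18, 18 and 23 in DDX6 KO, so WT lay below both knockouts, which overlapped each other. Counting used the strand, so these reads were kept apart from those of Vax2. Stambp, a deubiquitinase, rose by 1.48 and 1.53, and Nagk, a sugar kinase, by 1.20 and 1.35. Tet3, which oxidises methylcytosine, rose in DDX6 KO, by 1.64, with 0.31 in DGCR8 KO, and the difference between knockouts was called. The nearest tested gene above, Tex261, was not called, at -0.13 and 0.62.

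Around Smyd1 the knockouts shared 1 called gene, Gadd45a, a stress-response gene, at 2.78 in DGCR8 KO and 2.01 in DDX6 KO and 4177 kb away. Rpia, an enzyme of the pentose phosphate pathway, rose in DGCR8 KO, by 2.19, and Krcc1, Rmnd5a and Rnf103 rose in DDX6 KO, by 1.91, 1.04 and 1.80. Krcc1 lies within the long annotated span of Smyd1, on the opposite strand, and was at 32.4 CPM in WT, 29.9 in DGCR8 KO and 119.6 in DDX6 KO, a pattern unlike that of Smyd1. Also within that span and on the opposite strand, Gm1070 was not called, at 0.38 and 0.70. Gm44321, an untested transcript there that was singled out after its values were seen, had 2 counts over WT, 15 over DGCR8 KO and 14 over DDX6 KO. Eif2ak3, the nearest tested gene on the other side, was not called, at 0.11 and 0.83.

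Around Sh3bgrl, 2610002M06Rik rose in both knockouts, by 2.27 and 1.98. Hmgn5, a nucleosome-binding protein gene and the nearest tested gene below, rose in DGCR8 KO, by 1.31 (0.90 in DDX6 KO), as did Lpar4, a receptor for lysophosphatidic acid, by 1.53. Hdx rose in DDX6 KO, by 1.39, and was at -0.75 in DGCR8 KO, where the replicate block gave a called -1.09 (adjusted p = 0.0314, limma). The nearest gene above, Rps6ka6, was 2226 kb away and was not called, at 0.37 and -0.08.

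Around Pdzrn4, Lrrk2, a large kinase and the nearest tested gene below, rose by 2.98 (SE 0.66) in DGCR8 KO. Its mean was 0.902 CPM in WT, 6.10 in DGCR8 KO and 0.543 in DDX6 KO, so that it was seen above the floor in DGCR8 KO alone. Lrrk2 passed the filter only with DGCR8 KO libraries. Its being higher there was thus nearly fixed by the filter and is not counted as a result. Gm26760, an untested transcript upstream of Pdzrn4 that was singled out after its values were seen, had 4 counts over WT, 27 over DGCR8 KO and 1 over DDX6 KO. Kif21a, a kinesin, rose in both, by 2.28 and 1.72, and Prickle1, of planar cell polarity, rose in DGCR8 KO, by 1.73. Gxylt1, the nearest tested gene above, was not called, at 0.24 and 0.28.

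**Figure D4:**
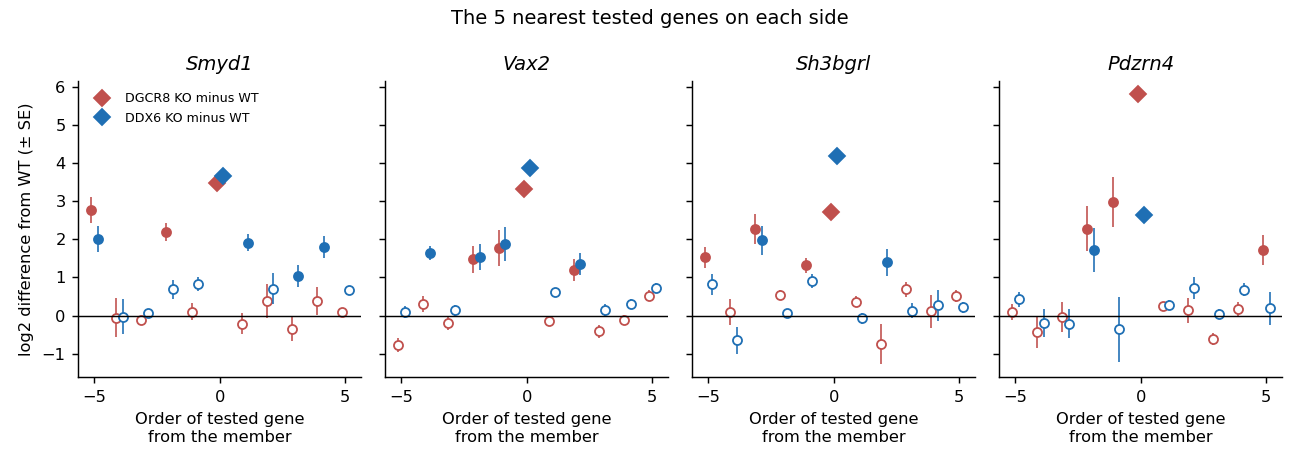
Log2 difference from WT (± SE) of the 5 nearest tested genes on each side of each gene, in order along the chromosome (horizontal axis), with called genes as filled circles and the gene itself as a diamond at 0. Each diamond lies above every circle of its own colour, a description only, as the genes at the diamonds were chosen by these same differences. No circle below 0 is filled.

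Few paralogs of the 4 genes were tested, 4 for Smyd1, 0 for Vax2, 2 for Sh3bgrl and 2 for Pdzrn4. None was called higher in both knockouts, where 8.93% (DGCR8 KO) and 7.55% (DDX6 KO) of all tested genes were higher. The share of all tested genes called higher in both was not counted, and nothing is read from so few paralogs. In the SMYD family, which methylates lysines, Smyd2, Smyd3, Smyd4 and Smyd5 were tested and none was called against WT by limma, edgeR or DESeq2. Smyd2 was at 26.5 CPM in WT, 46.5 in DGCR8 KO and 14.3 in DDX6 KO. Its log2 differences from WT, 0.83 and -0.86, had adjusted p-values of 0.00121 and 0.00323 (limma) but were short of the size for a call, and the knockouts differed by 1.69, which was called. Smyd3 was at 0.71 (adjusted p = 0.000307, limma) and -0.27, Smyd4 at -0.10 and 0.21, and Smyd5 at -0.32 and 0.29 against WT in DGCR8 KO and DDX6 KO. Of the homeobox genes related to Vax2, Vax1 and Noto had no count in any library, Emx1 had 0, 5 and 3 counts over WT, DGCR8 KO and DDX6 KO, and Emx2 had 1, 2 and 1. Sh3bgrl2 (0.38 and 0.10) and Sh3bgrl3 (-0.23 and -0.16) were not called, and Sh3bgr was below the filter, with 6, 4 and 13 counts. Pdzrn3, a paralog of Pdzrn4 on chromosome 6, was at -1.001 in DGCR8 KO, not called (adjusted p = 0.143, limma). It was at 1.56 in DDX6 KO and at -2.56 between the knockouts, both called. Pdzrn3 passed the filter on low values only with DDX6 KO libraries. Its being higher there was thus nearly fixed by the filter and is not counted as a result. Lnx2, at 29.4 CPM in WT, 57.3 in DGCR8 KO and 42.1 in DDX6 KO, was at 0.98 (adjusted p = 0.000954, limma) and 0.47 (adjusted p = 0.0748), short of the size for a call, and Lnx1 had 0, 0 and 4 counts.

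The programs in which Smyd1 and Vax2 act were also read. Their counts stand beside shares over all tested genes of 8.93% higher and 5.81% lower in DGCR8 KO and 7.55% and 3.66% in DDX6 KO. Of 46 muscle genes in the table, 12 were tested. Of the 12, 9 reached 3 CPM in all WT libraries, of which 2 were higher in DDX6 KO, and 3 passed the filter only with DDX6 KO libraries. Calls of genes that did not reach 3 CPM in WT can be partly set by the filter, in this list and those below. In DGCR8 KO Des fell by 2.51 and Myl4 fell by 2.61 on the log2 scale, and 0 were called higher by limma, edgeR or DESeq2 (4 were higher at an unadjusted p under 0.05, limma), with a median of 0.34 over the 12. In DDX6 KO 3 rose, Tagln by 1.73, Des by 1.29 and Mef2a by 1.13, and Ttn fell by 1.05, with a median of 0.27. Des, the muscle intermediate filament gene, thus went in opposite directions in the knockouts. Of 33 eye genes, 17 were tested. Of the 17, 12 reached 3 CPM in all WT libraries, of which 1 was higher in DGCR8 KO and 0 in DDX6 KO. The filter was passed by 1 only with DGCR8 KO libraries and by 1 only with DDX6 KO libraries. In DGCR8 KO 4 rose, Foxd1 by 3.97, Pax6 by 2.58, Efnb2 by 2.46 and Zic2 by 1.12, and 2 fell, Mitf and Nr2f1, with a median of 0.10. In DDX6 KO 2 rose, Foxd1 by 2.72 and Nr2f2 by 1.47, and Otx2 fell by 2.22, with a median of -0.17. Foxd1, a forkhead factor, was the only gene of this list called higher in both by limma, and edgeR and DESeq2 each called Efnb2 in both as well (1.33 and 1.34 in DDX6 KO, beside 1.22 with an adjusted p of 0.0643 in limma).

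Polycomb complexes keep many developmental genes silent in ESCs, and 26 of their 27 listed genes were tested. In DGCR8 KO 4 rose, Lcor by 2.52, Ezh1 by 1.20, Pcgf5 by 1.05 and Aebp2 by 1.02, with a median of -0.07, and DESeq2 called 3. In DDX6 KO Lcor rose, by 1.53, with a median of 0.18. The shares over all genes were 8.93% and 7.55%, and nothing particular to the list is read from 4 and 1 of 26. In both knockouts 0 were called lower by limma, edgeR or DESeq2, with 6 and 5 lower at an unadjusted p under 0.05 (limma). Over all lists, 20 genes were called in DDX6 KO from its 4 libraries, 11 with clone 1 alone and 15 with clone 2 alone, each of which leaves 2 libraries. The 20 include Pdzrn3 and 6 markers of 2-cell-like cells, described below, whose being higher in DDX6 KO was nearly fixed by the filter. The total is therefore not read as a result.

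Markers of other cells moved with some of these values, and their part in the results was not tested. Of 13 markers of 2-cell-like cells, a state that a few ESCs enter, 7 were tested, and all 7 passed the filter on low values only through DDX6 KO libraries, so that their being higher there was nearly fixed by the filter and is not counted as a result. Their summed level was 1.44 to 10.2 CPM in WT, 8.82 to 23.0 in DGCR8 KO and 26.4 to 53.2 in DDX6 KO, and Tcstv3 and Zscan4f had 0 counts in WT and DGCR8 KO. Of 14 feeder fibroblast markers 4 were tested, with 1 called higher in each knockout (Vim in DGCR8 KO, Fbn1 in DDX6 KO). Of the 4, 1 reached 3 CPM in all WT libraries, which Fbn1 did not, 1 passed the filter only with DGCR8 KO libraries and 2 only with DDX6 KO libraries. Their summed level was 82.6 to 149.6 CPM in WT, 347.5 to 432.5 in DGCR8 KO and 88.3 to 108.0 in DDX6 KO. Most of it was Vim, with means of 113.8, 392.1 and 80.0 CPM, and the fibroblast-defining genes were near the floor, with Col1a1 at 17, 5 and 48 counts over WT, DGCR8 KO and DDX6 KO, Col1a2 at 8, 9 and 10, Prrx1 at 7, 7 and 6, Fbn1 at 9, 17 and 87, and Dcn and Postn each at 0, 1 and 0. The shares of all tested genes called were 8.93% higher and 5.81% lower in DGCR8 KO and 7.55% and 3.66% in DDX6 KO, and lists with so few tested members are given by their counts alone. Of 10 primitive endoderm markers 4 were tested, and 3 fell in DGCR8 KO, while 1 rose in DDX6 KO. Of 9 trophectoderm markers 5 were tested, with 1 higher in DGCR8 KO and 2 in DDX6 KO. Of 10 neural markers 6 were tested, of which DGCR8 KO raised 1 and lowered 2 and DDX6 KO raised 1. Among the trophectoderm and neural genes that reached 3 CPM in all WT libraries (4 and 3), 0 were higher in DGCR8 KO and 1 of each list in DDX6 KO.

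Genes that followed the 4 most closely over the 10 libraries were found by Pearson's r of log2 CPM. The libraries fall into 3 genotypes, which sets most of each r, and the values are a description. Smyd1 was nearest to Tmem64 (r = 0.984), Ubd (0.970) and Ep300 (0.970). Vax2 was nearest to Pik3cd (0.985), Gm10522 (0.981) and Ubd (0.976). Ubd, a ubiquitin-like protein gene, was thus near both, at 25.9 CPM in WT, 186.8 in DGCR8 KO and 198.3 in DDX6 KO. Among the genes nearest to Smyd1 and Vax2, only Gm10522 was as low in WT as the 4 genes, at 0.766, 11.96 and 17.6 CPM. Sh3bgrl was nearest to Serpinb9b (0.985), Pdik1l (0.979) and Ppfibp1 (0.976), which had the same order of groups. Serpinb9b, also low in WT, was at 4.45, 8.82 and 12.9 CPM, and Ppfibp1 at 46.6, 87.9 and 146.8 CPM. Pdzrn4 was nearest to Ezh1 (0.995), 1700020I14Rik (0.989) and Zbtb41 (0.988), genes with WT means of 38.4 to 174.2 CPM, and Ezh1 was at 51.3, 115.4 and 72.1 CPM.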

How the data were processed

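Libraries were made with the QuantSeq 3′ FWD kit, which reads the end of each transcript. According to the methods and the table header, the authors trimmed reads with cutadapt 1.14, aligned uniquely with STAR 2.5.3a to mm10 and counted sense-strand reads with featureCounts 1.5.3 against Gencode, so the deposited values are raw counts per gene. No molecular identifiers are stated, so intervals and floors cover counting error only. Symbols came from a gene table of the same build (51274 of 51467 matched), and 92 spike-in rows were set aside.

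Libraries were grouped by title. Genes reaching 3 CPM in 3 or more libraries entered limma 3.58.1 (voom) after TMM scaling in edgeR 4.0.16 (R 4.3.3), all 10 libraries in 1 model with genotype as the term, two-sided, with Benjamini-Hochberg adjustment over all 11683 genes. Calls needed an adjusted p under 0.05 and a log2 difference beyond 1. Alternatives were edgeR's quasi-likelihood test, DESeq2 1.42.0, limma-trend, other scalings and filters, each library left out, each clone alone, a replicate block and chromosome centring. The number in the titles was checked as a pairing, by correlating deviations from group means. Libraries of WT and DGCR8 KO with the same number correlated at 0.145 to 0.285 (3 pairs), and those with other numbers at -0.257 to -0.0196. These groups thus look paired in the data, though the labels do not say what the number marks. The reported fit left the number out, so its p-values and intervals are unpaired, and the number entered only in the replicate block. For WT and DDX6 KO, 3 of 4 same-number pairs were over 0.1, the highest at 0.136. Of 8 pairs with other numbers 1 was, at 0.168, higher than any of the same number. The 4 genes and all lists were chosen with earlier results of these data known. Besides the 4 genes, named genes were both targets, family members, neighbours that were called or nearest, up to 4 called genes per list and contrast with the largest change, and the 3 highest correlations per gene. Promoters and miRNAs came from RefSeq (3 of the 4 genes matched), and 3′ UTRs from Gencode M21, taking 1 coding transcript per gene.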

Additional observations from a re-analysis of the deposited data

Results flagged for a closer look

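Several results differed between the knockouts by the direct test of that difference (limma-voom, called at the same limits). Among the 4 genes these were Sh3bgrl, at -1.47 on the log2 scale, DGCR8 KO minus DDX6 KO, and Pdzrn4, at 3.16. Near Smyd1 they were Rpia (1.504), Krcc1 (-2.12), Rmnd5a (-1.39) and Rnf103 (-1.42), and near Vax2 Tet3 (-1.33), all 5 on chromosome 6 and 4 of them higher in DDX6 KO, where that chromosome's median was raised. Near Sh3bgrl the difference of Hdx was -2.14. Near Pdzrn4 they were Prickle1 (1.54) and Lrrk2 (3.34, fitted against a DDX6 KO level under the floor), both higher in DGCR8 KO. Lrrk2 passed the filter only with DGCR8 KO libraries, so its difference is not counted as a result. Among paralogs they were Smyd2 (1.69) and Pdzrn3 (-2.56). Pdzrn3 passed the filter only with DDX6 KO libraries, so its difference is not counted as a result. No DDX6 KO library stood apart from the other 3 in the level of any of the 4 genes by Dixon's test.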

How the results depend on the processing

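All 4 genes were higher in both knockouts under each alternative run, and the calls of Sh3bgrl and Pdzrn4 between the knockouts held in each. The Pdzrn4 difference from WT was 5.01 in DGCR8 KO and 2.00 in DDX6 KO with limma-trend, and that of Vax2 in DDX6 KO was 3.27 with chromosome centring, under which the Smyd1 difference between knockouts turned to 0.32. Leaving out single libraries gave 2.80 to 3.90 for Smyd1 in DGCR8 KO, -0.23 to 0.87 for Smyd1 and -0.72 to 0.41 for Pdzrn4 between clones, with clone arms of 1 library assumed to vary like the rest. With spike-in scaling, added after seeing the data, 6 neighbours (11 in the reported fit) and 12 list genes (19) were called in DGCR8 KO, and 12 list genes (20) in DDX6 KO. List genes called in DDX6 KO were 10 with at least 10 CPM in 3 libraries, where fewer genes were tested, and 11 from clone 1 alone. The 20 of the reported fit include Pdzrn3 and 6 markers of 2-cell-like cells, which passed its filter only with DDX6 KO libraries. WT limits of 5 and 20 CPM gave 197 and 478 low genes without overlap, in place of 302. Total-count scaling moved the median of all genes in DDX6 KO to 0.15, and spike-in scaling moved that in DGCR8 KO to -0.15. With the replicate block, no call in DGCR8 KO among the 142 genes of the lists, neighbours and members was lost and 2 were added (Hdx and Tcstv1), 3 of 35 in DDX6 KO were lost (Nr2f2, Hdx and Rmnd5a) and 1 was added. Neighbours called were 12 in DGCR8 KO and 9 in DDX6 KO, list genes 20 and 20, and the difference between knockouts was 3.19 for Pdzrn4, -1.46 for Sh3bgrl, -0.62 for Vax2 and -0.20 for Smyd1. Depth limits the WT values of Sh3bgrl and Pdzrn4, read from 14 and 9 counts.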
